A study of Arabidopsis thaliana with 39 samples.

Results

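Salinity was studied in whole seedlings of Arabidopsis thaliana (Col-0, wild type), which were grown on agar plates, moved to liquid ½ MS medium with 250 mM NaCl for 24 h (NaCl+) and harvested when 15 days old. Seedlings of the same age and line without an added stress served as the control (C), and the same control libraries were used for the copper, cadmium and sulfur treatments of the series. Small RNAs were sequenced from 3 biological replicates of each group, so 6 of the 39 libraries of the series bear on the response to salt. The members are all mature miRNA sequences in the deposited count table for NaCl, with 1 entry for each distinct sequence: 353 sequences of 19 to 24 nt, which carry 431 names. Names that share a sequence share 1 read count and are written together, as in miR169b-5p,c. Of the 353 sequences, 285 had at least 1 read in the 6 libraries, 68 had none, and 156 had enough reads for a test. The salt dose was single and acute, the tissue was the whole seedling, and a smaller number of cells of one type cannot be told apart from less RNA per cell.

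A miRNA is cut from a hairpin in its primary transcript, in plants by DCL1 in most cases and by DCL4 in a few, and leaves the hairpin as a short duplex. One strand of the duplex is bound by an ARGONAUTE protein, usually AGO1, and directs it to complementary mRNAs, which are cleaved or translationally repressed, while the other strand is usually degraded. Many plant miRNAs repress transcription factors of growth, leaf form and flowering, others keep nutrient pathways in check, and soil salt is known to slow growth through osmotic and ionic stress.

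Libraries held 10238448 to 10728612 reads. In the C libraries 98.2 to 99.0% of the reads mapped to the genome, and in the NaCl+ libraries 98.7 to 98.9%. The RNA integrity number was 8.4 to 8.9 in C and 8.7 to 8.9 in NaCl+. Reads counted as miRNAs numbered 3912553 to 4299489 in the C libraries and 1018693 to 1733990 in the NaCl+ libraries, so 3 reads in a library were worth 0.698 to 0.767 CPM (reads per 1000000 miRNA reads) in C and 1.73 to 2.94 CPM in NaCl+. Most miRNA reads belonged to 8 sequences, which together took 94.9% ± 0.429 of the reads in C and 94.4% ± 0.602 in NaCl+ (SD, n = 3).

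The sequences on which the results turn are printed here 5′ to 3′ as the count table gives them, in DNA letters, with bases 2 to 8, the seed, in capitals. They are the 6 sequences that rose under both scalings used below, their relatives and partner strands, and sequences that fell.
miR2936: cTTGAGAGagagaacacagacg
miR8176: gGCCGGTGgtcgcgagaggga
miR396a-5p: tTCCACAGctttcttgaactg
miR396a-3p: gTTCAATAaagctgtgggaag
miR396b-5p: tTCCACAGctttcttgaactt
miR5642a,b: tCTCGCGCttgtacggcttt
miR2111b-3p: aTCCTCGGgatacagtttacc
miR399c-5p: gGGCATCTttctattggcagg
miR408-3p: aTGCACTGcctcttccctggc
miR408-5p: aCAGGGAAcaagcagagcatg
miR319a,b: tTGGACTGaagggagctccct
miR319b.2: aATGAATGatgcgagagacaa
miR169b-5p,c: cAGCCAAGgatgacttgccgg
miR169b-3p: gGCAAGTTgtccttcggctaca
miR160a-5p,b,c-5p: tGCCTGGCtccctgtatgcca
miR160a-3p: gCGTATGAggagccatgcata
miR5023: aTTGGTAGtggataagggggc
All 353 sequences were found by exact match in TAIR10.1, and 352 of them overlap an annotated miRNA gene. miR2936 lies at chr4:1046948-1046969 on the minus strand, inside the coding sequence and on the strand of SAG21 (AT4G02380), a gene of the late embryogenesis abundant family known for its response to stress and ageing. miR8176 lies at chr4:11795199-11795219 on the plus strand, within an annotated snoRNA gene (AT4G07075) and a lncRNA gene (AT4G07070). miR5642a,b has 3 exact matches, at chr2:3145-3164, chr2:7191162-7191181 and chr3:14197116-14197135, and the 2 on chromosome 2 lie in non-coding exon parts of AT2G01008 and AT2G16586. miR396a-5p (chr2:4142443-4142463, minus strand) overlaps no protein-coding gene, and its reads cannot be fully separated from those of miR396b-5p, which differs at 1 of 21 bases and has the same seed. miR2111b-3p lies at chr5:400464-400484 and miR399c-5p at chr5:24962497-24962517, both on the plus strand. The miR408 strands lie at chr2:19319866-19319886 (5p) and chr2:19319933-19319953 (3p) on the plus strand, and miR319b.2 at chr5:16660513-16660533 on the minus strand. miR169b-5p,c has exact matches at chr5:8527511-8527531 on the plus strand and chr5:15870868-15870888 on the minus strand, and miR169b-3p lies at chr5:8527592-8527613.

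Under salinity a smaller share of the sequenced RNA consisted of miRNAs. The share of genome-mapped reads counted as miRNAs was 41.2, 36.9 and 40.3% in the 3 C libraries and 13.5, 16.7 and 9.84% in the 3 NaCl+ libraries. The means were 39.5% ± 2.29 and 13.3% ± 3.45 (SD, n = 3), a difference of -26.1 percentage points, and the groups did not overlap. A two-sided exact permutation test gave p = 0.1, the smallest value that 3 against 3 libraries allow. The share was 25.6 to 51.6% in the other 33 libraries of the series, and 0 of the 33 lay below the highest NaCl+ library. Mapped reads that were not counted as miRNAs averaged 6365876 per library in C and 8906264 in NaCl+. What those reads were was not tested, because the count tables hold only miRNAs.

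**Figure D1:**
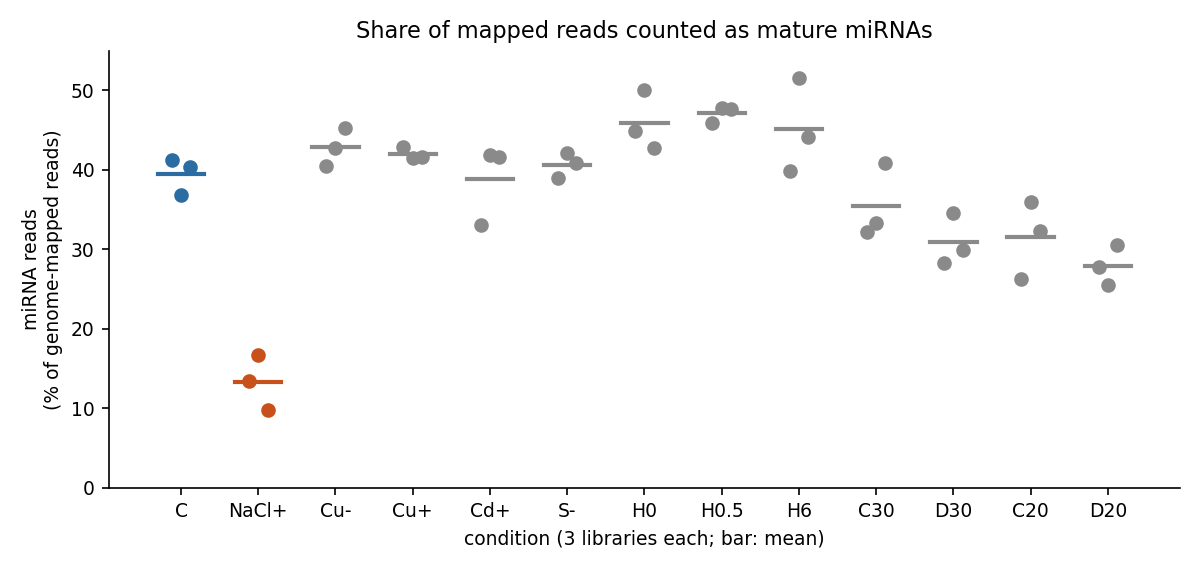
Percent of genome-mapped reads counted as mature miRNAs in each library (points) and its mean (bar) for the 13 conditions of the series. The 3 NaCl+ libraries lie between 9.84 and 16.7%, below all C libraries (36.9 to 41.2%) and below the other 33 libraries (25.6 to 51.6%).

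Because the share differed so much, fold changes were computed on 2 scales, and a value is on the TMM scale unless genome-mapped reads are named. With TMM scaling, which sets the typical miRNA as unchanged, a value compares a sequence with the other miRNAs. Scaled by genome-mapped reads, it compares a sequence with all mapped RNA. With TMM, 52 of the 156 tested sequences (33.3%) passed an adjusted p of 0.05 in edgeR's quasi-likelihood test of NaCl+ against C, 32 of them higher (20.5% of those tested) and 20 lower (12.8%). With genome-mapped reads, 117 of 156 passed (75.0%), 6 higher (3.85%) and 111 lower (71.2%). The median log2 fold change of the 156 sequences was 0.13 with TMM and -1.33 with genome-mapped reads. Genome-mapped scaling moved values down, as the medians show, so a sequence lower with TMM could hardly fail to be lower there. All 20 were lower on that scale too, which is no second support for these calls. Of the 32 higher ones 6 stayed higher: miR2936, miR8176, miR396a-5p, miR2111b-3p, miR5642a,b and miR399c-5p. The other 26 were called in neither direction with genome-mapped reads, so their rise is a rise relative to the other miRNAs. The CPM values of C and NaCl+ did not overlap for 77 of the 156 sequences (49.4%), and for 51 of the 52 called ones.

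**Figure D2:**
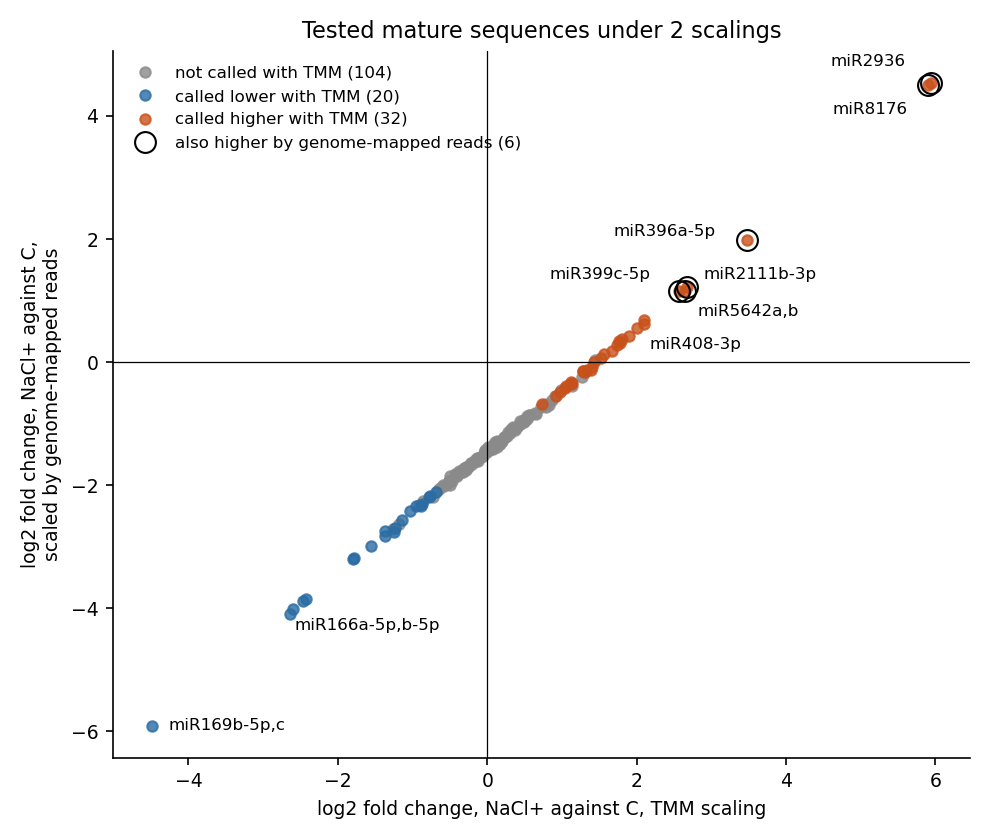
Log2 fold change of NaCl+ against C for the 156 tested sequences, with TMM scaling (x axis) and with scaling by genome-mapped reads (y axis); colours give the TMM call and black rings the 6 sequences called higher with both. The medians are 0.13 on the x axis and -1.33 on the y axis, so the cloud lies below the diagonal.

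The 2 largest increases belonged to sequences that were lower in every other library of the series than in any salt library. miR2936 had 3, 0 and 1 reads in the C libraries and 38, 35 and 26 reads in the NaCl+ libraries, that is 0.698, 0 and 0.236 against 27.9, 20.2 and 25.5 CPM. Its highest value in the other 33 libraries was 11.7 CPM, in a library of severe drought (D20), below each of the 3 salt libraries. The paper lists miR2936 among the miRNAs raised under severe drought as well. The log2 change was 5.94 (SE 0.57, adjusted p = 9.05e-06), and that by genome-mapped reads 4.54 (SE 0.57, adjusted p = 1.89e-09). With only 4 control reads in all, the ratio of pooled CPM was 74.9 (exact 95% interval 28.4 to 280.3, for counting error only). miR8176, the 21-nt sequence within the snoRNA gene, had 0.930, 1.02 and 1.65 CPM in C and 59.4, 85.9 and 109 CPM in NaCl+, and the other 33 libraries reached no more than 2.51 CPM. The change on the log2 scale was 5.90 (SE 0.38, adjusted p = 2.79e-07), or 4.50 (SE 0.45, adjusted p = 1.94e-12) by genome-mapped reads. Both calls were kept with either scaling when any 1 of the 6 libraries was left out.

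miR5642a,b rose from 10.0, 11.5 and 11.5 CPM to 114, 48.4 and 56.9 CPM, above the 26.5 CPM that was the maximum of the other 33 libraries. On the log2 scale this was 2.65 (SE 0.42, adjusted p = 0.000691), against 1.16 (SE 0.36, adjusted p = 0.00361) by genome-mapped reads, a value that no longer passed without NaCl+ replicate 1 (adjusted p = 0.0638). The highest of the 3 salt libraries was replicate 1, and the lowest was still above every control library.

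All 4 sequences of the miR396 hairpins rose relative to the other miRNAs, against 20.5% higher over all 156. The 4 are not separate cases, since they are both strands of the hairpins miR396a and miR396b. Of these, miR396a-5p and miR396b-5p are the strands that repress growth-regulating factors (GRFs) and so limit leaf cell proliferation. miR396a-5p stood at 132, 122 and 104 CPM in C and at 2139, 989.6 and 1044 CPM in NaCl+, and the other 33 libraries held 45.4 to 289 CPM. Each salt library was thus above every other library of the series. The rise on the log2 scale was 3.48 (SE 0.41, adjusted p = 3.80e-05), and 1.98 (SE 0.35, adjusted p = 3.84e-06) by genome-mapped reads. miR396b-5p, which is 1 base different, stood at 106, 143 and 103 CPM in C and 518, 299 and 374 CPM in NaCl+ (log2 fold change 1.66, SE 0.32, adjusted p = 0.00162), and by genome-mapped reads it was 0.19. The opposite strands rose as well with TMM, miR396a-3p with log2 fold change 1.78, SE 0.30, adjusted p = 0.000749 and miR396b-3p with log2 fold change 1.53, SE 0.29, adjusted p = 0.00149. By genome-mapped reads these were 0.30 and 0.06, not called, so that miR396a-5p was the 1 member of the family higher on both scales.

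**Figure D3:**
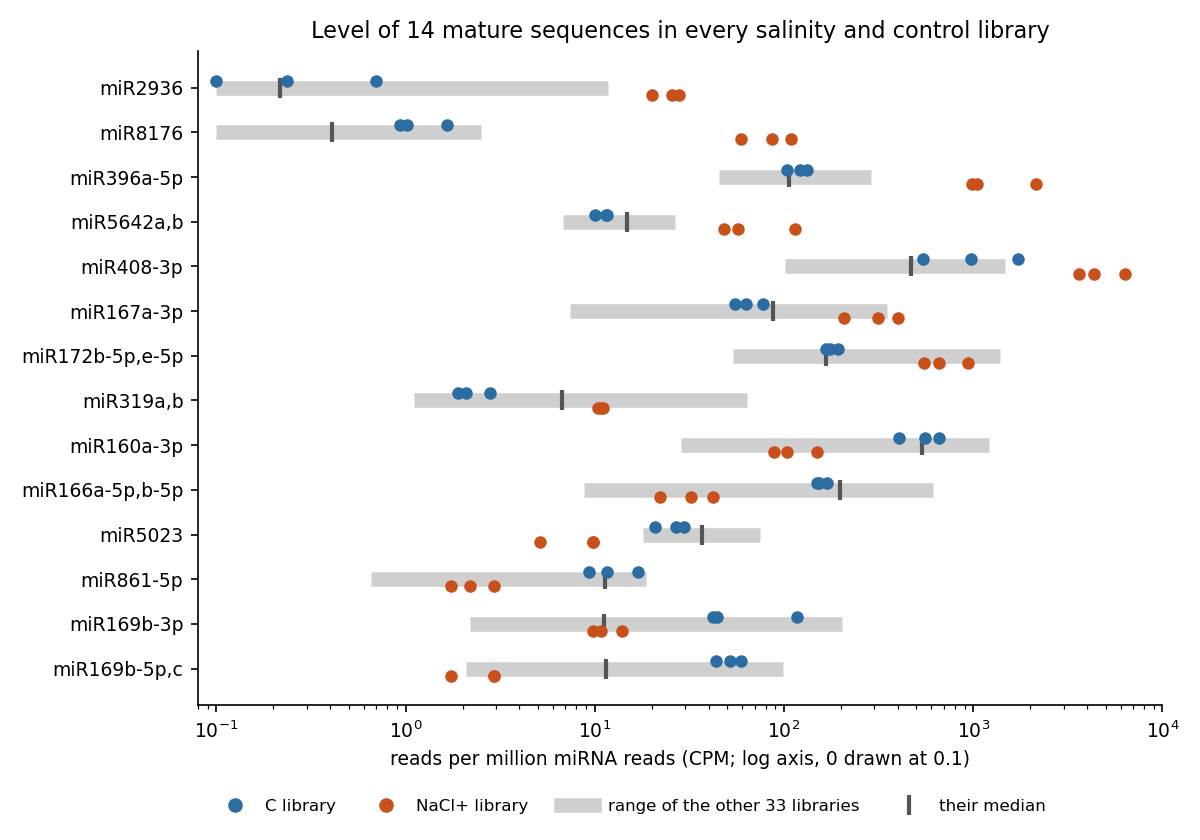
CPM of 14 mature sequences in the 3 C (blue) and 3 NaCl+ (orange) libraries, on a log axis, with the range and median of the other 33 libraries in grey. miR2936, miR8176, miR396a-5p, miR5642a,b and miR408-3p lie above, and miR5023 below, every other library; a value of 0 is drawn at 0.1.

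Among the miRNAs of the copper response, which repress copper proteins such as plantacyanin, laccases and superoxide dismutases, 3 of 8 tested sequences rose, 1 fell and 4 did not pass, where 20.5% of all 156 rose and 12.8% fell. The list median was 0.61, against 0.13 over all 156. miR408-3p, the strand known to act on plantacyanin and laccase mRNAs, stood at 968, 1714 and 546 CPM in C and at 3616, 4349.5 and 6342 CPM in NaCl+. Its lowest salt value lay above the 1472 CPM that was the maximum of the other 33 libraries, and the rise on the log2 scale was 2.00 (SE 0.34, adjusted p = 0.000749). Its partner miR408-5p fell from 18892, 22939 and 18962 to 8352, 14461 and 12109.6 CPM (log2 fold change -0.95, SE 0.23, adjusted p = 0.00741). So the 2 strands of 1 hairpin moved in opposite directions. miR398b-3p,c-3p, which acts on copper superoxide dismutases, stood at 2.79, 5.62 and 2.36 CPM in C and 9.54, 6.92 and 26.5 CPM in NaCl+ (log2 fold change 1.74, SE 0.46, adjusted p = 0.0131), a call that was lost without NaCl+ replicate 3 (adjusted p = 0.111). It passed the read filter only through the NaCl+ libraries. Its partner miR398b-5p,c-5p rose with log2 fold change 1.33, SE 0.34, adjusted p = 0.00952. The laccase regulators miR397a and miR397b stood at 196, 128 and 145 and at 143, 116 and 122 CPM under salt, above the highest of the other 33 libraries (miR397a 76.8 and miR397b 79.6 CPM), but against C (55.1, 78.2 and 96.9 and 87.2, 77.4 and 117 CPM) neither was called, with log2 fold changes of 0.91 and 0.30. miR398a-5p (0.27) and miR857 (-0.12) were not called either. By genome-mapped reads 4 of the 8 were lower and 4 were not called, against 71.2% lower over all 156.

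The phosphate list (miR399, miR827, miR2111 and miR778) takes in miR399, which represses the ubiquitin conjugase PHO2, and miR2111, which acts on a kelch-repeat F-box mRNA. Here 5 of 8 tested sequences rose and 3 were not called, against 20.5% higher over all 156, with a median of 1.44. These were low sequences, and miR399c-5p, miR2111b-3p, miR399a and miR399d passed the read filter only through the NaCl+ libraries. Sequences as low in C that did not rise were not tested, so the share and the median are partly set by the filter. miR399c-5p went from 1.63, 1.79 and 0.236 to 8.81, 8.65 and 5.89 CPM, miR2111b-3p from 2.56, 0.511 and 0.707 to 10.3, 5.77 and 12.8 CPM, miR399a from 1.16, 3.07 and 1.18 to 5.87, 5.77 and 9.82 CPM and miR399d from 1.40, 2.81 and 1.89 to 10.3, 7.50 and 3.93 CPM. Their log2 fold changes were 2.56, 2.68, 1.80 and 1.76 (adjusted p = 0.00286, 0.00250, 0.00836 and 0.0149). miR399a and miR399d differ at 1 base and could exchange reads. The call for miR399d was lost without NaCl+ replicate 1, and the fifth, miR2111a-5p,b-5p (1.13, adjusted p = 0.0248), was lost in 3 of the 6 fits that left out a library. By genome-mapped reads miR399c-5p (log2 fold change 1.15, adjusted p = 0.0385) and miR2111b-3p (log2 fold change 1.22, adjusted p = 0.0243) were called, each in only 2 of the 6 such fits. Both are opposite strands, not the strands that act on the mRNAs named above. The partner of miR399c-5p, miR399b,c-3p, was not called with TMM.

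miR159 and miR319 repress GAMYB-like and TCP transcription factors and share much of their mature sequence. All 3 tested sequences rose with TMM, against 20.5% of all 156, and with genome-mapped reads the 3 were not called (list median 0.01). Of the 3, miR319a,b passed the read filter only through the NaCl+ libraries, so it could be tested only because it was higher there. The list members miR159b-5p, miR159c and miR319c had too few reads for a test. miR319a,b stood at 2.09, 2.81 and 1.89 CPM in C and 11.0, 10.4 and 10.8 CPM in NaCl+ (log2 fold change 2.10, SE 0.36, adjusted p = 0.000821). miR159b-3p went from 64.7, 101 and 57.3 to 222, 234 and 189 CPM (log2 fold change 1.43, SE 0.30, adjusted p = 0.00309) and miR159a from 344.9, 479.5 and 319.3 to 902, 753 and 753 CPM (log2 fold change 0.97, SE 0.28, adjusted p = 0.0189), a call lost without C replicate 3. Of the second duplexes of the miR319 hairpins 2 of 3 fell, against 12.8% of all 156. miR319b.2 fell from 417, 466 and 399.7 to 257, 164 and 161 CPM (log2 fold change -1.23, SE 0.32, adjusted p = 0.0108), miR319c.2 from 65.6, 58.3 and 62.2 to 32.3, 35.8 and 21.6 CPM (log2 fold change -1.15, SE 0.32, adjusted p = 0.0173), and miR319a.2 had a log2 fold change of -0.06 and was not called.

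The SPL regulators miR156 and miR157, which delay the change from juvenile to adult leaves, hold the 2 most abundant sequences of the libraries. miR157a-5p,b-5p,c-5p took 34.8% ± 1.43 of the miRNA reads in C and 42.0% ± 4.32 in NaCl+ (SD, n = 3). The groups did not overlap, and no other library of the series reached the lowest salt value of 39.2%, but with TMM the log2 fold change of 0.15 (SE 0.19, adjusted p = 0.556) did not pass. miR156a-5p,b-5p,c-5p,d-5p,e,f-5p took 25.5% ± 1.26 and 22.1% ± 1.29 of the reads, again without a call (-0.34, adjusted p = 0.181). Of the 12 tested sequences of the list 3 rose and 9 were not called, close to the 20.5% higher over all 156, and the 3 were opposite strands: miR156b-3p (1.12), miR156a-3p (1.05) and miR156f-3p (1.57). The call for miR156f-3p was lost without NaCl+ replicate 3 and 3 of the 6 fits did not test it, and that for miR156a-3p was lost in 3 of the 6 fits that left out a library.

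The largest decrease was in miR169, which represses NF-YA subunits of the CCAAT-binding transcription factor and is known in drought and nitrogen responses. miR169b-5p,c fell from 43.5, 59.0 and 51.6 CPM in C to 2.94, 1.73 and 2.94 CPM in NaCl+, which is 4, 3 and 3 reads. The log2 change was -4.49 (SE 0.39, adjusted p = 4.40e-06), and -5.91 (SE 0.47, adjusted p = 1.17e-15) by genome-mapped reads. Only 2 of the other 33 libraries lay below the highest salt value. Its partner miR169b-3p fell from 44.4, 117 and 42.2 to 13.9, 9.80 and 10.8 CPM (log2 fold change -2.65, SE 0.44, adjusted p = 0.000749), and miR169h,i,j,k,l,m,n from 47.9, 45.5 and 29.2 to 10.3, 26.5 and 13.7 CPM (log2 fold change -1.37, SE 0.38, adjusted p = 0.0149), a call lost without NaCl+ replicate 1. miR169a-5p, which differs from miR169b-5p,c at 1 of 21 bases, had 75.8, 65.7 and 61.5 CPM in C and 39.6, 60.0 and 60.9 CPM in NaCl+, with a log2 fold change of -0.50 that was not called. In all, 3 of 5 tested members fell and 2 were not called, against 12.8% lower over all 156. By genome-mapped reads the 5 were lower, as were 71.2% of all 156.

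Of the HD-ZIP III regulators miR165 and miR166, which set the upper and lower sides of leaves, the abundant strands were not called and the opposite strands fell. The 3p sequence that all 7 miR166 genes share, written miR166-3p here, stood at 58505, 60434 and 68905 CPM in C and 41795, 52532 and 66707 CPM in NaCl+, overlapping and not called (-0.40, adjusted p = 0.132). miR166a-5p,b-5p fell from 149.6, 169 and 153 to 22.0, 32.3 and 42.2 CPM (log2 fold change -2.46, SE 0.28, adjusted p = 3.79e-05). miR166e-5p fell with log2 fold change -1.80, SE 0.34, adjusted p = 0.00146 and miR165a-5p with log2 fold change -1.55, SE 0.27, adjusted p = 0.000821. The list gave 3 lower and 2 not called of 5, against 12.8% lower over all 156, with a median of -1.55.

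miR172 represses AP2-like factors and so promotes flowering, and here it split by strand, with 2 of 3 tested 3p sequences lower and the 5p sequence higher. Over all 156 sequences 12.8% were lower and 20.5% higher. miR172a,b-3p went from 4732, 5788 and 5028 to 2368, 3337 and 2648 CPM (log2 fold change -1.03, SE 0.25, adjusted p = 0.00701). miR172e-3p, 1 base different and therefore open to exchange of reads, fell with log2 fold change -1.37, SE 0.41, adjusted p = 0.0222 and lost its call without NaCl+ replicate 2, while miR172c,d-3p just missed it (-1.27, adjusted p = 0.0503). miR172b-5p,e-5p rose from 175, 192 and 168 to 939, 547 and 658 CPM (log2 fold change 1.90, SE 0.32, adjusted p = 0.000749). The auxin list also held calls in both directions, with 1 higher, 2 lower and 10 not called of 13, below the 33.3% called over all 156, and a median of -0.03. miR167a-3p, opposite to the strand that represses the auxin response factors ARF6 and ARF8, rose from 62.8, 55.2 and 77.8 to 399, 207 and 314 CPM (log2 fold change 2.10, SE 0.35, adjusted p = 0.000749). miR160a-3p, opposite to the strand that represses ARF10, ARF16 and ARF17, fell from 407, 657 and 556 to 88.8, 103 and 149 CPM (log2 fold change -2.42, SE 0.28, adjusted p = 3.80e-05). miR390a-5p,b-5p, the trigger of the tasiRNAs of TAS3, had 2731, 4310.0 and 3552 CPM in C and 1699, 2408 and 2819 CPM in NaCl+, which overlap (log2 fold change -0.78, SE 0.25, adjusted p = 0.0273), and it lost its call without C replicate 2 and without NaCl+ replicate 1. The auxin receptor regulator miR393a-5p,b-5p spread from 3.46 to 32.4 CPM among the salt libraries and was not called.

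Among the remaining families, miR171 (HAM regulators of the shoot meristem) gave 2 higher of 5, against 20.5% of all 156. These were miR171b-3p,c-3p with log2 fold change 1.40, SE 0.33, adjusted p = 0.00701 and miR171a-3p with log2 fold change 0.93, SE 0.31, adjusted p = 0.0359, the second lost without C replicate 3. miR823 and miR773a, which act on DNA methyltransferases, both rose: miR823 from 186, 223 and 158 to 445, 501 and 583 CPM (log2 fold change 1.29, SE 0.25, adjusted p = 0.00162) and miR773a from 33.5, 32.5 and 27.6 to 103, 60.6 and 54.0 CPM (log2 fold change 1.14, SE 0.35, adjusted p = 0.0262), with salt values above all other 33 libraries in either case. Opposite to the strand that acts on the MADS-box gene AGL16, miR824-3p rose (log2 fold change 1.32, SE 0.28, adjusted p = 0.00343), while miR824-5p (-0.05) was not called. Of the miR447 family 2 of 3 were higher, miR447c-5p (1.28) and miR447a.2-3p (1.06), but these lost their calls in 3 and 4 of the 6 fits that left out a library. miR391-3p (1.39, adjusted p = 0.0240) and miR4228-3p (0.74, adjusted p = 0.0498) completed the higher calls, the second lost in 5 of 6 such fits.

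Lower calls outside the larger families were led by miR861-5p, from 9.30, 16.9 and 11.5 to 2.20, 1.73 and 2.94 CPM (log2 fold change -2.61, SE 0.43, adjusted p = 0.000749), and miR5023, from 27.0, 29.6 and 20.7 to 5.14, 9.80 and 9.82 CPM (log2 fold change -1.78, SE 0.33, adjusted p = 0.00146). For miR5023 no other library of the series was as low as the salt libraries, the lowest being 18 CPM. miR829-3p.1, a 24-nt sequence, went from 372, 466 and 389 to 301, 102 and 135 CPM (log2 fold change -1.25, SE 0.42, adjusted p = 0.0359) and lost its call without NaCl+ replicate 2. miR161.1, a regulator of PPR genes, fell from 15499, 16066 and 14135 to 10995, 10989.7 and 8723 CPM (log2 fold change -0.68, SE 0.24, adjusted p = 0.0495), below all of the other 33 libraries, although the call was lost in 3 of the 6 fits that left out a library. miR164c-5p (-0.77, adjusted p = 0.0348), a regulator of NAC factors of organ boundaries, and miR848 (-0.87, adjusted p = 0.0477) were lost in 4 and 5 of those fits. miR158b (-0.88, adjusted p = 0.0240) was lost without NaCl+ replicate 2, and its abundant relative miR158a-3p, 1 base different, was not called (-0.22).

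In 5 lists with 16 tested sequences no member was called by edgeR with TMM, against 33.3% called over all 156. The lists were put together because they held no call, so the 0 is no result about them as a set. Of the 16 sequences, 0 had an unadjusted p under 0.05, and DESeq2 called 1 of them, in the NB-LRR list. The machinery list held 5 tested sequences of miR162, miR168 and miR403. Of these, miR168a-5p,b-5p (AGO1) with a log2 fold change of -0.37, miR162a-3p,b-3p (DCL1) with 0.31 and miR403-3p (AGO2) with 0.05 were not called. The others, miR162a-5p,b-5p and miR168a-3p, are the opposite strands, and the list median over all 5 was 0.02. The 2 miR395 sequences of sulfate assimilation, the 3 of the NB-LRR regulators miR472 and miR825, the 2 of the jacalin lectin regulators miR842 and miR846, and the 4 cut by DCL4 (miR822, miR839, miR869) made up the rest. The 3 sequences of miR828 and miR858, regulators of flavonoid MYB factors, had too few reads for a test. By genome-mapped reads all 5 of the machinery list were lower, as were 71.2% of all sequences tested.

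**Figure D4:**
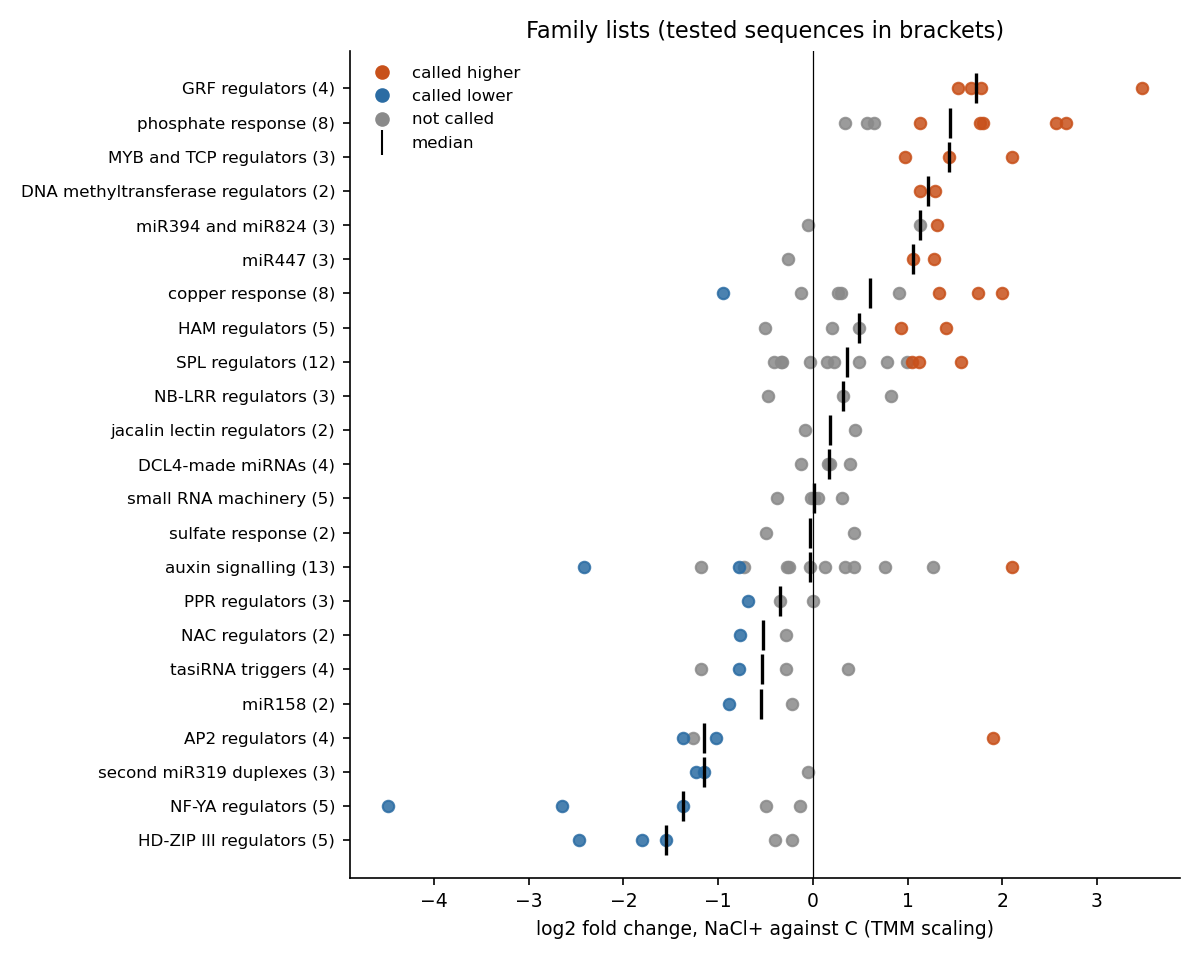
Log2 fold change of NaCl+ against C (TMM scaling) of each tested sequence, by family list, ordered by the list median (black tick); orange and blue points were called higher and lower. The lists of GRF regulators (miR396, both strands, 4 of 4 higher) and HD-ZIP III regulators (miR165 and miR166, both strands, 3 of 5 lower) mark the ends of the order. Their medians are 1.72 and -1.55, against 0.13 over all 156 sequences, of which 20.5% were higher and 12.8% lower.

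The ratio of the 2 sequences of a hairpin within a library does not depend on how libraries are scaled, and it was tested with limma for the 39 pairs with a mean of at least 10 reads for each sequence. The major sequence of a pair is the one with more reads over the other 33 libraries. In 20 of 39 pairs (51.3%) the ratio changed, towards the major sequence in 6 (15.4%) and towards the minor one in 14 (35.9%). In 24 of 39 pairs (61.5%) the groups did not overlap. These pairs are not independent, since some share a sequence: miR156a-5p,b-5p,c-5p,d-5p,e,f-5p enters 4 tested pairs, of which 3 were called. Pairs that involve miR319a.2, miR319b.2, miR161, miR1886 or miR447a are 2 sequences of 1 hairpin rather than the 2 strands of 1 duplex. Of the 20 calls, 14 held in all 6 fits that left out a library.

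In the miR408 hairpin the ratio of miR408-5p to miR408-3p was 19.5, 13.4 and 34.8 in C and 2.31, 3.32 and 1.91 in NaCl+, a log2 change of -3.09 (SE 0.42, adjusted p = 8.80e-05). The other 33 libraries gave 20.6 to 61.0, so the salt ratios were the lowest of the series, although C replicates 1 and 2 also lay below that range. The ratio of miR172a,b-3p to miR172b-5p,e-5p fell from 27.0, 30.2 and 30.0 to 2.52, 6.10 and 4.03 (log2 change -2.87, SE 0.39, adjusted p = 8.80e-05), also below the other 33 libraries, whose minimum was 14.9. The ratio of miR171b-5p to miR171b-3p,c-3p fell from 4.61, 3.84 and 6.47 to 1.50, 1.05 and 1.08 (log2 change -1.96, SE 0.36, adjusted p = 0.000766). miR171b-3p,c-3p, the strand that acts on HAM mRNAs and is also made from miR171c, thus came close to its partner under salt.

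miR396a and miR169b gave the 2 ratios that lay above all other 33 libraries. miR396a-5p over miR396a-3p was 3.30, 3.76 and 2.58 in C and 13.3, 9.38 and 6.45 in NaCl+ (log2 change 1.56, SE 0.38, adjusted p = 0.00497), with a maximum of 2.93 in the other 33, which C replicates 1 and 2 exceeded as well. The related miR396b-5p over miR396b-3p was 2.28, 1.92 and 2.08 and 2.94, 2.27 and 1.56 and was not called (log2 change 0.07, adjusted p = 0.844); the difference between the 2 hairpins was not tested. miR169b-3p over miR169b-5p,c was 1.02, 1.98 and 0.817 in C and 4.75, 5.67 and 3.67 in NaCl+ (log2 change 1.68, SE 0.40, adjusted p = 0.00481), with a maximum of 2.72 elsewhere. These salt ratios rest on the few reads of miR169b-5p,c given above, so their counting error is large. Both strands of miR169b fell, and the 5p strand, which is also made from miR169c, fell further.

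miR319b.2 over miR319a,b was 199, 166 and 212 in C and 23.3, 15.8 and 14.9 in NaCl+ (log2 change -3.12, SE 0.35, adjusted p = 2.19e-05), inside the wide range of the other 33 libraries, 6.15 to 553. For miR319a.2 over miR319a,b the log2 change was -1.95 (SE 0.37, adjusted p = 0.000891). The miR160a hairpin moved from an excess of miR160a-3p to an excess of miR160a-5p,b,c-5p, the strand that represses ARFs, with ratios of 1.14, 2.69 and 2.34 in C and 0.311, 0.628 and 0.238 in NaCl+ (log2 change -2.42, SE 0.46, adjusted p = 0.000900). Since miR160a-5p,b,c-5p comes from 3 hairpins, its reads cannot be given to miR160a alone, and miR160c-3p over the same sequence was not called (0.13). miR167a-5p,b over miR167a-3p fell (log2 change -2.31, SE 0.38, adjusted p = 0.000403). In the other direction, the major strand gained in miR172e (3.19), miR166a and miR166b (2.06), miR166e (1.50) and miR165a (1.32). Here too the major sequence comes from several genes, miR172b-5p,e-5p from miR172b and miR172e and miR166-3p from all 7 miR166 genes, so its reads cannot be given to 1 hairpin.

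**Figure D5:**
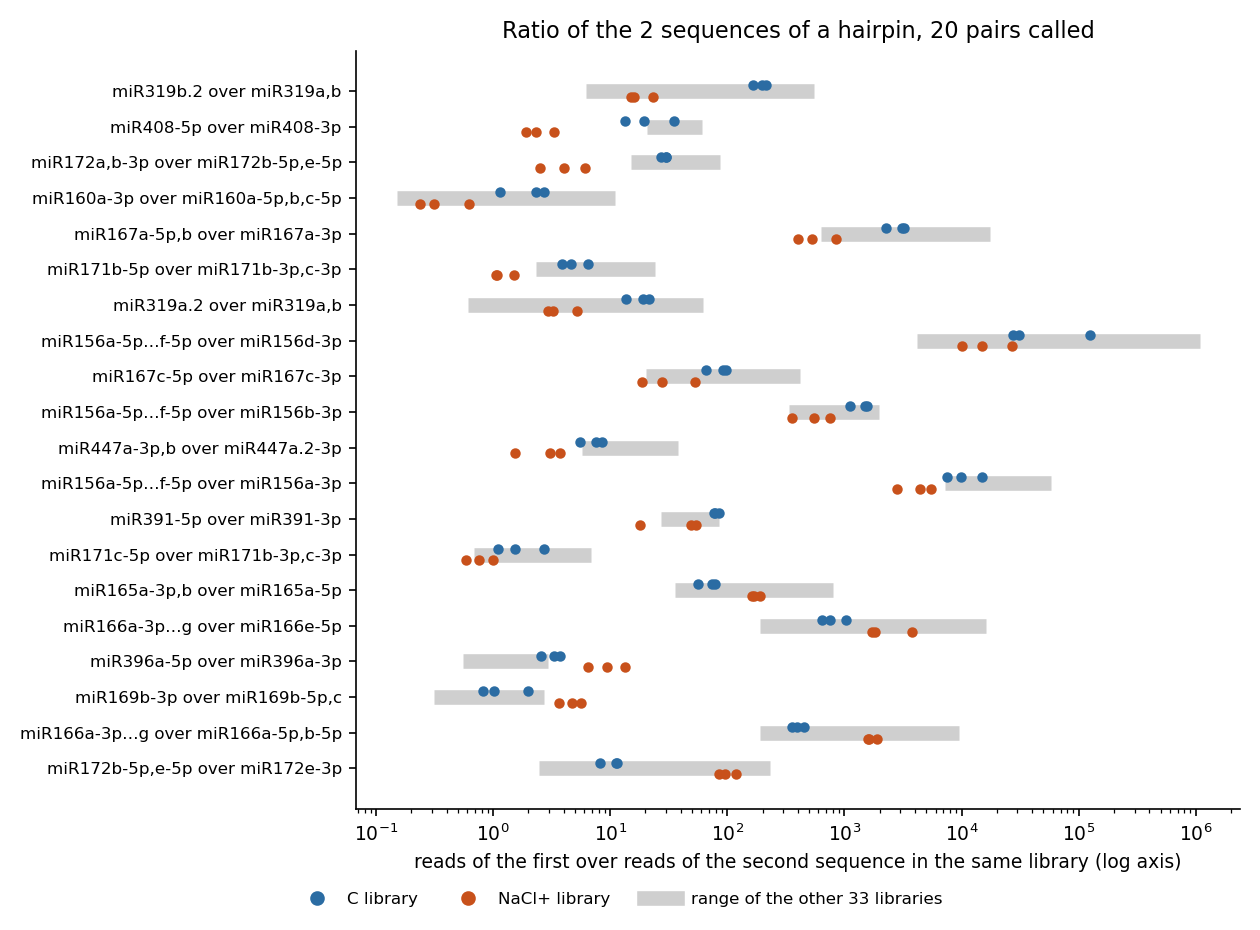
Ratio of reads of the 2 sequences of a hairpin in each C (blue) and NaCl+ (orange) library for the 20 pairs called, on a log axis, with the range of the other 33 libraries in grey. For miR408-5p over miR408-3p the salt libraries lie between 1.91 and 3.32, below the other 33 (20.6 to 61.0), and for miR396a-5p over miR396a-3p between 6.45 and 13.3, above them.

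The calls were also counted by sequence features. The major and minor classes rest on read numbers in the other 33 libraries and so are tied to level. Sequences low in C pass the read filter only where the salt libraries are higher. Of 30 tested sequences with a mean under 10 CPM, 8 were higher and 1 lower. The minor class also holds acting strands such as miR408-3p. Of 36 tested minor sequences 14 were higher and 5 lower, with a median log2 fold change of 0.81, of 63 major ones 8 and 11, with a median of -0.13, and of 56 without a counted partner 9 and 4, with a median of 0.27, against 32 and 20 of all 156 (20.5 and 12.8%). Minor sequences took 0.717% of the miRNA reads in C and 1.12% in NaCl+. Sequences of 20 nt fell from 29.8% ± 1.53 to 26.4% ± 1.46 of the miRNA reads and those of 21 nt rose from 69.8% ± 1.51 to 73.0% ± 1.34 (SD, n = 3), and for both lengths the groups did not overlap. miR156a-5p,b-5p,c-5p,d-5p,e,f-5p and miR157a-5p,b-5p,c-5p, of 20 and 21 nt, are the most abundant sequences of these lengths. Of 23 tested sequences on the sense strand of a protein-coding gene 2 were higher and 1 lower, and of the other 133 there were 30 higher and 19 lower.

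Of the 129 sequences with reads but too few for the test, the reads of 34 did not overlap between groups, but the salt libraries held 1018693 to 1733990 miRNA reads against 3912553 to 4299489 in the control, and at that difference in depth reads alone favour a lower value under salt. On the CPM scale 21 of the 34 overlapped. Over all 129 sequences 11 lay higher and 12 lower under salt without overlap of CPM, with no test. The 5 with the largest difference of mean CPM among the 34 are given here. miR831-5p had 0 reads in each C library and 8, 4 and 10 reads in the NaCl+ libraries, at least 22.2-fold higher per miRNA read when the control is set at 3 reads over the group. miR851-3p had 3.26, 3.07 and 2.83 CPM in C and 0, 1.15 and 0.982 in NaCl+, miR5651 had 2.33, 2.56 and 4.48 and 1.47, 1.15 and 1.96 CPM, and miR8181 had 1.63, 2.30 and 1.65 and 0, 1.15 and 0 CPM, all without overlap and from at most 2 reads in a salt library. miR8173 overlapped on this scale, with 4.88, 3.83 and 1.41 CPM in C and 2.20, 0.577 and 2.94 CPM in NaCl+.

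Whether the levels differ from those under other treatments of the same age and length was asked without the shared control. NaCl+ was compared with the mean of copper deficiency (Cu-), 10 µM copper excess (Cu+), 10 µM cadmium (Cd+) and sulfur deficiency (S-), each of 3 libraries of Col-0 seedlings aged 15 days and treated for 24 h. Of 181 tested sequences 83 passed (45.9%), 47 higher (26.0%) and 36 lower (19.9%). The 3 NaCl+ libraries are the same as in the comparison with C, so calls shared by the 2 comparisons are not independent. The lowest p belonged to miR396a-5p, at 2139, 989.6 and 1044 CPM under salt and at means of 95.9 (Cu-), 113 (Cu+), 90.3 (Cd+) and 99.9 CPM (S-), a log2 difference of 3.57 (SE 0.16, adjusted p = 1.09e-11). miR8176 had means of 0.950 to 1.52 CPM in the other treatments (log2 difference 5.89, adjusted p = 4.64e-11) and miR2936 of 0.307 to 0.533 CPM (log2 difference 5.73, adjusted p = 1.53e-09). miR408-3p, a sequence of the copper response, had means of 1074 CPM in Cu-, 665.9 in Cu+, 876.4 in Cd+ and 614.0 in S-, means below each salt library (log2 difference 2.36, adjusted p = 3.20e-10). miR169b-5p,c had means of 32.4 to 58.7 CPM in the 4 treatments (log2 difference -4.25, adjusted p = 5.97e-07) and miR166a-5p,b-5p of 164 to 189 CPM (log2 difference -2.66, adjusted p = 6.17e-08). miR5642a,b (2.30) and miR167a-3p (1.72) completed the 8 lowest p. By genome-mapped reads 7 of 181 were higher and 143 lower.

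The other water-deficit stress of the series, severe drought in rosette leaves of 30-day-old Col-0 plants in soil, with water withheld until wilting (D20) and a control of its own (C20), 3 libraries each, was set against salinity as a difference of effects. The organ, the age and the growth medium differ between these experiments, so the difference cannot be assigned to the stress alone. Of 177 tested sequences 18 differed (10.2%), 9 more positive under salt (5.08%) and 9 more negative (5.08%). miR2936 was tested and was not among the 18. miR396a-5p changed by 3.48 under salt and by -0.02 under drought (difference 3.27, SE 0.43, adjusted p = 6.07e-05). The 2 effects come from separate fits and need not subtract exactly to the difference, which was fitted over 12 libraries. miR172b-5p,e-5p changed by 1.90 and -1.09 (difference 2.81, SE 0.38, adjusted p = 6.07e-05), and miR167a-3p by 2.10 and -2.003 (difference 4.02, SE 0.56, adjusted p = 6.07e-05), so the fitted values had opposite signs under the 2 stresses. miR408-5p had opposite signs as well, with -0.95 under salt and 1.25 under drought (difference -2.28, SE 0.40, adjusted p = 0.000529). For miR169b-5p,c the changes were -4.49 and -1.03 (difference -3.64, SE 0.54, adjusted p = 0.000108). The difference contains the salt effect itself, so it is no independent check of the calls against C.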

How the data were processed

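Small RNAs of whole seedlings were sequenced by the authors. Per the labels and the methods of the study, reads shorter than 17 nt were removed, genome mapping used Bowtie 1.0.0 with TAIR10, and reads were matched to mature miRNAs of miRBase release 21 with trimming at the ends. The authors deposited read counts and CPM (reads per 1000000 miRNA reads) per mature sequence, and per library the counts of reads, the percent mapped and the RNA integrity number, a score. Deposited columns with the authors' own fold changes and unadjusted p-values were not used. Sequences that occur in several genes share 1 count, and near-identical sequences may exchange reads after trimming. Total read counts per library were 10238448 to 10728612 in the 6 libraries. An exact 95% interval is given for miR2936, and other low sequences are given without one. The interval covers counting error only, since reads carried no molecular identifiers.

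Counts were tested with edgeR 4.0.16 in R 4.3.3 (quasi-likelihood F test, TMM scaling, sequences kept by filterByExpr at a minimum of 10 reads, Benjamini-Hochberg adjustment over all sequences tested, threshold 0.05), and again with library sizes set to genome-mapped reads. Strand ratios were tested with limma 3.58.1 on log2 CPM with a prior count of 2, for pairs with at least 10 reads on average. The test scripts were tested on simulated data. Alternatives were RLE and total-count scaling, other read filters, DESeq2 1.42.0, a one-way F test, a joint fit, thinning, a replicate block and leaving out each library. The same alternatives for genome-mapped reads (no filter, block, left-out libraries) were chosen after seeing the data. Replicates are biological per the labels, and no 2 C libraries and no 2 NaCl+ libraries agreed within sampling noise. Other pairs of libraries were not compared in this way.

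The members and family lists were chosen with earlier results of these data known. Sequences were named by rule: the 12 highest and 12 lowest calls without overlap of the groups, those higher on both scales and the 10 lowest, the 8 most abundant, the 8 strand pairs with the largest change and that of miR319b and miR319b.2, up to 4 members of each list with the largest change, 5 untested sequences whose reads did not overlap, and the 8 lowest p of each comparison with other stresses. Further called sequences were named after their values were seen. Positions refer to TAIR10.1, and sequences were copied from the deposited tables.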

Additional observations from a re-analysis of the deposited data

Results flagged for a closer look

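The change under salinity differed from the change under severe drought for 18 sequences at an adjusted p of 0.05 (edgeR, difference of the 2 effects on the log2 scale, salinity minus drought, 12 libraries). The organ and the age of the plants differ between the experiments and cannot be told apart from the stress. All groups held 3 libraries, so single libraries were not screened for outlying values.

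The difference was positive for all 4 miR396 sequences, with 3.27 for miR396a-5p, 2.61 for miR396b-3p, 2.34 for miR396a-3p and 1.34 for miR396b-5p. It was also positive for miR8176 (6.72), which was too low in the drought libraries for a test of its own, for miR167a-3p (4.02), for miR172b-5p,e-5p (2.81), for miR5642a,b (2.54) and for miR157c-3p (1.92). Of these, miR157c-3p was not called against C under salt (0.78, with -1.29 under drought).

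The difference was negative for both strands of miR169b, with -3.64 for miR169b-5p,c and -2.70 for miR169b-3p. It was negative for miR166e-5p (-1.95) and miR166a-5p,b-5p (-1.49), for miR408-5p (-2.28), miR861-5p (-2.38), miR848 (-1.36) and miR158b (-1.25). For miR866-5p (-2.45) the difference came with a change of 2.88 under drought and 0.56 under salt, the second not called.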

How the results depend on the processing

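Alternatives were run 1 at a time. The main limit is the scale: with genome-mapped reads in place of TMM, 117 of 156 sequences were called (6 higher, 111 lower), and 14 sequences higher with TMM had a value below 0 that was not called. These were miR156a-3p (-0.42), miR156b-3p (-0.36), miR159a (-0.48), miR171a-3p (-0.54), miR171b-3p,c-3p (-0.071), miR2111a-5p,b-5p (-0.33), miR391-3p (-0.13), miR398b-5p,c-5p (-0.13), miR4228-3p (-0.68), miR447a.2-3p (-0.39), miR447c-5p (-0.15), miR773a (-0.33), miR823 (-0.15) and miR824-3p (-0.15). On that scale the comparison with the other 4 seedling treatments gave 150 calls (7 higher, 143 lower) and the difference from drought 115 (109 lower). Without a read filter 14 sequences were more negative under salt than under drought. The number of higher and lower calls was 33 and 25 with RLE scaling, 38 and 17 with total miRNA counts, 29 and 23 with DESeq2, 28 and 19 without a read filter and 26 and 18 at equal depth, and DESeq2 shared 48 of the 52 calls. Leaving out 1 library gave 45 to 59 calls (29 to 42 higher, 16 to 23 lower), and 34 of the 52 held each time. It gave 105 to 129 calls with genome-mapped reads (98 to 126 lower, and 3 to 7 higher, the 3 without NaCl+ replicate 1), 15 to 21 strand pairs (6 towards the major sequence each time, 9 to 15 towards the minor one, the 9 without C replicate 2), 70 to 90 calls against the other treatments (41 to 51 higher, 29 to 42 lower), 14 to 26 against drought (6 to 13 higher, 6 to 15 lower, the 15 without NaCl+ replicate 2) and a difference in miRNA share of -27.8 to -24.4 points. The cause of these shifts was not tested. Where a group was left with 2 libraries the spread was estimated over both groups.

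The replicate numbers are shared across groups without a stated pairing. Deviations from the group means correlated at -0.03, 0.04 and 0.18 for the 3 same-numbered pairs of libraries (across sequences, which are not independent). With the replicate number as a block 57 sequences were called (36 higher, 21 lower), 116 with genome-mapped reads, 22 strand pairs, 84 sequences against the other treatments and 18 against drought.

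The depth of the salt libraries limits low sequences: 3 reads were worth up to 2.94 CPM there, and a difference between levels at or under that value could not be resolved.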
